A study of Mus musculus with 24 samples.

Results

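The genes of arginine metabolism, inducible nitric oxide synthase (iNOS) and itaconate production were followed in septic and peritonitic mice treated with β-nicotinamide mononucleotide (β-NMN), a precursor of NAD+. They were taken by symbol, as Nos2, Nos3, Acod1, Ass1, Asl, Slc7a2 and Odc1, which makes 7 of the 54658 genes of the count tables. All mice were male C57BL/6 aged 7 to 12 weeks. In the first model, thioglycollate (TGC) was injected into the peritoneum, and mice received vehicle (0.9% saline, n = 6) or β-NMN at 185 mg/kg/day (n = 6) intraperitoneally in 3 daily injections, the first of them given with TGC and the last 24 h before the lavage. Cells of the peritoneal lavage were then plated without sorting and exposed to E. coli for 6 h, so that every peritoneal library comes from stimulated cells. In the second model, mice underwent cecal ligation and puncture (CLP), received 1 injection of vehicle (n = 3) or β-NMN (n = 3) at the same dose right after surgery, and a 10 mg piece of heart and of lung was taken from each mouse 24 h later. Neither unstimulated peritoneal cells nor organs of sham-operated mice were analysed here, so only the effect of β-NMN on top of E. coli or CLP can be read.

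Arginine is where several macrophage pathways meet. The cationic amino acid transporter encoded by Slc7a2 brings it into the cell, and the nitric oxide synthases Nos2 (iNOS, induced by bacterial products and interferon-γ) and Nos3 (the endothelial enzyme) turn it into nitric oxide and citrulline. Ass1 and Asl rebuild arginine from citrulline, Odc1 commits ornithine to polyamine synthesis, and Acod1 (also called Irg1) diverts cis-aconitate of the citric acid cycle into itaconate, a metabolite that activated macrophages make in large amounts.

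Libraries held 31126823 to 112456050 counted reads in peritoneal cells, 27319513 to 68523239 in heart and 8915366 to 28356786 in lung. Levels are given as CPM, a gene's counts scaled to a common library total, with library sizes corrected for composition by TMM, and a gene was called where edgeR's quasi-likelihood test gave a Benjamini-Hochberg adjusted p below 0.05 over all genes tested. The organ labels were borne out by defining markers, since the summed level of the cardiomyocyte markers was 33620 to 52445 CPM in heart and at most 417 CPM elsewhere, and that of the alveolar and airway markers 58773 to 104604 CPM in lung and at most 6.70 CPM elsewhere. Macrophage markers summed to 5620 to 12138 CPM in peritoneal cells, but also to 1342 to 5477 CPM in lung (211 to 468 CPM in heart). Their sum thus set the peritoneal cells apart from lung only narrowly, on CPM scaled within each sample type. In both it was mostly Lyz2 (1059 to 5177 CPM in lung, means of 4340 and 7752 CPM in vehicle and β-NMN cells). Cd68 (31.2 to 69.8 CPM in lung, means of 1055 and 1887 CPM in the cells) and Adgre1 (7.08 to 51.3, 563 and 647 CPM) lay further apart, whereas Mertk (54.8 to 82.8, 66.5 and 186 CPM) came close. Vehicle mouse 2 of the CLP experiment stood apart in both organs. The SD of its log2 difference from the other libraries was 0.99 in heart, against 0.39 to 0.58 for the others, and 1.57 in lung, against 0.45 to 0.60, where it was also the shallowest library. The organ log2 fold changes of the 7 genes are therefore also given without it. Counts of genes whose groups did not overlap, marker levels and pathway genes of the organs are given with it only.

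In E. coli-stimulated peritoneal cells, 5 of the 6 measurable genes were lower after β-NMN, and their 6 β-NMN libraries all lay below their 6 vehicle libraries. The fall lay between 1.88- and 2.90-fold for Odc1, Nos2, Acod1 and Ass1, and was smallest for Slc7a2, at 1.35-fold. Asl was at the same level in both groups, and Nos3 was all but absent. Lower calls made up 27.9% of all 14985 genes tested and calls in either direction 51.6%. Groups that did not overlap made up 26.6% of these genes, with β-NMN lower for 14.0% and higher for 12.6%. The median log2 fold change was -1.11 over the 6 genes and -0.02 over all genes tested. In these bulk libraries, fewer cells of a type and less RNA per cell cannot be told apart.

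**Figure D1:**
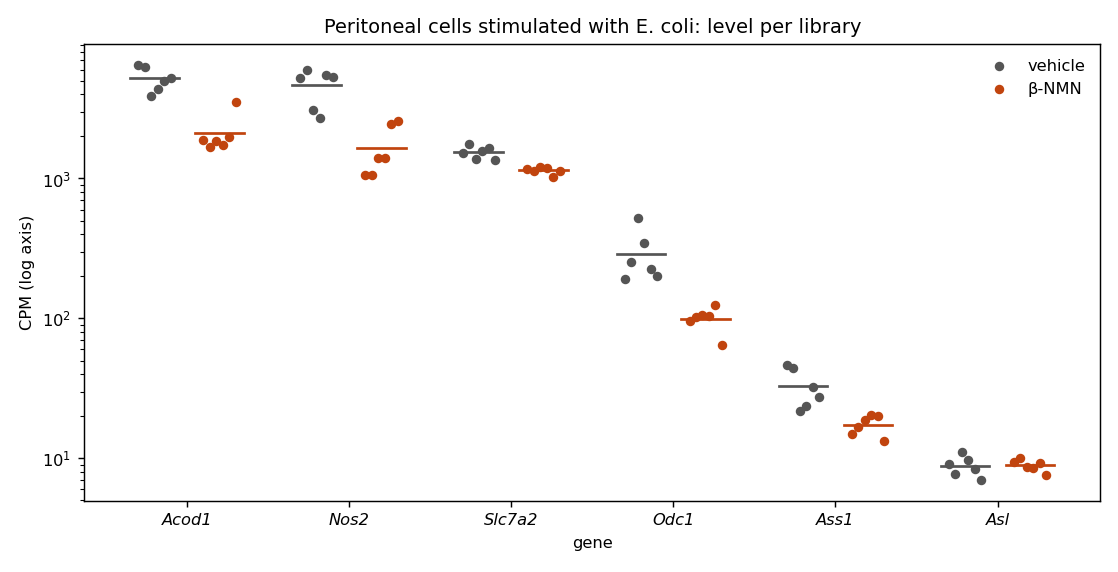
Level of 6 of the 7 genes in each peritoneal library, in CPM on a log axis (Nos3 is left out because of its 0 to 14 counts). Points are libraries (6 vehicle, 6 β-NMN) in the order of their replicate numbers and lines are group means. The 2 clouds of points do not overlap for any gene but Asl.

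Slc7a2, the transporter (chr8:40862341-40922070, plus strand, GRCm38), was the most evenly measured of the genes that fell. Its lowest, median and highest levels were 1365, 1544 and 1755 CPM in vehicle cells and 1022, 1157 and 1210 CPM in β-NMN cells. The libraries of a group thus stayed close together, with a narrow gap between the groups. This is a log2 fold change of -0.43 ± 0.09 (SE, n = 6 per group, edgeR adjusted p = 0.000912).

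Nos2 (chr11:78920787-78960226, plus strand), which makes nitric oxide in activated macrophages, ranked 32nd by mean level among the genes tested. Its lowest, median and highest levels were 2693, 5232 and 5973 CPM in vehicle cells and 1051, 1399 and 2585 CPM in β-NMN cells. Both groups were spread, and the 2 lowest vehicle libraries (replicates 3 and 4, 3110 and 2693 CPM) came near the 2 highest β-NMN libraries (replicates 5 and 6, 2450 and 2585 CPM). This amounts to a log2 fold change of -1.48 ± 0.26 (edgeR adjusted p = 0.00031). Nos3 (chr5:24364816-24384474, plus strand), the endothelial synthase, had 0 to 14 counts per library and was not tested. It had no count in 3 of the 12 libraries, where a count of 0 allows a level of up to 0.0697 to 0.102 CPM, for counting error only.

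Ass1 and Asl, the consecutive enzymes that return citrulline to arginine, did not move together. Ass1 (chr2:31470270-31520670, plus strand), the rate-limiting step, lay at 21.7, 29.9 and 46.5 CPM (lowest, median, highest) in vehicle cells and at 13.3, 17.7 and 20.4 CPM in β-NMN cells. The closest pair of libraries across the groups were thus only about 1 CPM apart. For Ass1 edgeR gave a log2 fold change of -0.91 ± 0.19 (edgeR adjusted p = 0.000984). Asl (chr5:130011258-130024381, minus strand) lay at 7.00, 8.79 and 11.2 CPM in vehicle cells and at 7.61, 9.04 and 10.0 CPM in β-NMN cells. The groups overlapped, the log2 fold change was 0.01 ± 0.12, and its 95% interval of -0.24 to 0.27 leaves room for changes of that size only (edgeR adjusted p = 0.935).

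Odc1 (chr12:17544808-17551502, plus strand), ornithine decarboxylase, lay at 191, 238 and 518 CPM (lowest, median, highest) in vehicle cells and at 64.9, 103 and 124 CPM in β-NMN cells. Vehicle replicate 3 was the highest library at 518 CPM, followed by vehicle replicate 4 at 343 CPM, and all others were at or below 252 CPM. Odc1 had a log2 fold change of -1.54 ± 0.23 (edgeR adjusted p = 7.05e-05), and it was -1.24 without vehicle replicate 3.

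Acod1 (chr14:103047012-103056573, plus strand), the itaconate synthase, had the highest level of the 7 genes and ranked 24th of all genes tested. It lay at 3911, 5137 and 6497 CPM (lowest, median, highest) in vehicle cells and at 1677, 1860 and 3494 CPM in β-NMN cells. In the β-NMN group, 5 libraries lay between 1677 and 1988 CPM, and replicate 6, at 3494 CPM, was the one that came near the vehicle cells. Acod1 had a log2 fold change of -1.31 ± 0.19 (edgeR adjusted p = 4.6e-05), and it was -1.49 without that library.

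For each of these 5 genes the exact permutation test over the 12 libraries gave p = 0.00216 (2-sided), the smallest value that 6 against 6 libraries can give, and for Asl it gave p = 0.846. Groups that do not overlap always give the smallest value, so for the 5 genes it only restates their separation. The 5 calls were kept when any single library was left out. Total counts split the libraries into a deeper set (3 vehicle, 2 β-NMN) and a shallower one (3 vehicle, 4 β-NMN), a split chosen after seeing the data. All 5 genes were lower in both sets. In the deeper set, Slc7a2 was no longer called (log2 fold change -0.34, edgeR adjusted p = 0.11).

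In vehicle cells, the order of the 7 genes by level per kb of exon was Acod1 (1991 ± 388 CPM per kb, SD, n = 6), Nos2 (1049 ± 311), Slc7a2 (168 ± 16.7), Odc1 (84.7 ± 36.8), Ass1 (13.5 ± 4.39), Asl (1.84 ± 0.308) and Nos3 (0.0171 ± 0.0109). Slc7a2 and Odc1 were neighbours whose ranges overlapped. The order was the same in β-NMN cells. Together, the 7 genes took 0.895 to 1.43% of the scaled reads in vehicle cells and 0.399 to 0.730% in β-NMN cells.

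RefSeq upstream sequence was at hand for 3 of the 7 genes, Acod1, Ass1 and Odc1, all of which fell. The 250 bases before the start of Acod1 and of Ass1 are shown so that the base composition and core elements of the most and of a weakly expressed gene can be compared (the window given for Odc1 reaches into RefSeq's own span of that gene and is not shown). Capitals mark any match, on either strand, to the TATA box (TATAAA), the E-box (CACGTG), the GC box (GGGCGG), the IRF motif (AANNGAAA), the interferon-stimulated response element, the C/EBP motif (TTGCNNAA), the AP-1 motif (TGANTCA), the GAS motif (TTCNNNGAA) or the NF-κB consensus. The regions, both on the plus strand of GRCm38.p6, are chr14:103046762-103047011 (Acod1) and chr2:31470020-31470269 (Ass1).
Acod1: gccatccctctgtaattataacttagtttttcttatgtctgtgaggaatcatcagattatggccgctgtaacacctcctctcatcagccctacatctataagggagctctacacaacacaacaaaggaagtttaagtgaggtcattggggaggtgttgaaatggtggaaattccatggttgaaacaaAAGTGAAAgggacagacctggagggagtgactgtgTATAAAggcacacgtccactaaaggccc
Ass1: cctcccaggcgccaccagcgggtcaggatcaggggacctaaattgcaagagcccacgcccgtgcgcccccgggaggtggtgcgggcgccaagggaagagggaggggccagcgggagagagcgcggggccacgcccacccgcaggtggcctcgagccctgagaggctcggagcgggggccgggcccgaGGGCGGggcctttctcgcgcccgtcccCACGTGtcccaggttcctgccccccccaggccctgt

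The upstream regions differed in composition although both genes fell. That of Acod1 was 44.4% G and C, with a TATAAA at -28 and an AANNGAAA at -63 from the RefSeq start. That of Ass1 was 75.6% G and C, with 1 GC box at -63 and 1 E-box at -36. The median G and C content of 32851 upstream regions was 52.4%. Over all regions of the same length, 12.4% held the TATA box, 21.3% the IRF motif, 32.7% the GC box and 6.02% the E-box. No match to the C/EBP, AP-1, GAS, interferon-stimulated response or NF-κB motif lay in either window, against 9.56%, 6.75%, 7.02%, 2.98% and 3.9% of all regions (an interferon-stimulated match always holds an IRF match). GENCODE places the starts of these genes upstream of RefSeq's, at 103046977 for Acod1 and 31470207 for Ass1, so that the TATAAA of Acod1 and the GC box and E-box of Ass1 lie within the genes as GENCODE draws them. All matches are descriptions of the letters.

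Within the groups, libraries high in Nos2 tended to be high in Acod1 and low in Odc1 and Asl. After group means were subtracted, Pearson's r of Nos2 over the 12 peritoneal libraries was 0.76 with Acod1, -0.67 with Asl, -0.56 with Odc1, 0.43 with Ass1 and -0.04 with Slc7a2. It was -0.76 for Acod1 with Odc1, -0.64 for Acod1 with Asl, 0.23 for Acod1 with Ass1 and 0.77 for Asl with Odc1. All are read from shared libraries and given as descriptions. Out of 9638 genes whose log2 CPM averaged 1 or more, those most like Nos2 by the same measure were Ggta1 (r = 0.98), Pfkfb3 (0.96) and Tiparp (0.96). Those most like Acod1 were Azi2 (0.98), Parp9 (0.97) and Ifit1bl2 (0.97).

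The lists of neighbouring genes are to be read beside all genes tested, of which 27.9% were lower and 23.7% higher. Of 7 arginine transport genes tested, 3 were lower and 1 higher, with a median log2 fold change of -0.30. Slc7a3, another cationic amino acid transporter, fell from 2.74 to 0.718 CPM (log2 fold change -1.94 ± 0.28), Slc7a6, a light chain of the y+L exchanger, from 8.77 to 4.66 CPM (-0.91 ± 0.16) and Slc3a2, the shared heavy chain, from 816 to 559 CPM (-0.54 ± 0.15). The gene that rose was Slc25a2, a mitochondrial ornithine carrier, at 0.199 against 0.893 CPM (2.23 ± 0.56). Slc7a1, the constitutive arginine transporter, was not called (214 against 174 CPM, log2 fold change -0.30 ± 0.16).

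Of 8 genes tested that serve nitric oxide synthesis and sensing, 3 were lower and 2 higher (median log2 fold change 0.16), shares near those over all genes. Tetrahydrobiopterin is the cofactor of all nitric oxide synthases. Of the genes that make or regenerate it, Gch1, the first step, was lower (334 against 271 CPM, log2 fold change -0.30 ± 0.09), as was Pts, the second step (13.8 against 7.78 CPM, -0.83 ± 0.16), whereas Qdpr, which recycles the oxidised cofactor, was higher (5.68 against 11.2 CPM, 0.99 ± 0.17). Nostrin, a trafficking protein of the endothelial synthase, was higher (2.82 against 5.17 CPM, 0.88 ± 0.13), and Nosip, another protein that binds this synthase, was lower (13.1 against 9.02 CPM, -0.53 ± 0.11).

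Downstream of Odc1, 4 of 15 polyamine genes were lower and 4 higher (median log2 fold change -0.06), again near the shares over all genes. Smox, which oxidises spermine, fell from 710 ± 59.5 to 197 ± 24.5 CPM (SD, n = 6 per group, log2 fold change -1.85 ± 0.10), and Amd1, which supplies the aminopropyl donor, fell from 13.7 to 5.88 CPM (-1.23 ± 0.14). Sms, which makes spermine, rose from 27.6 ± 3.50 to 74.4 ± 5.26 CPM (1.43 ± 0.09), and Dhps, which uses spermidine to modify eIF5A, rose from 17.2 to 26.2 CPM (0.61 ± 0.08). Each of these 4 genes separated all β-NMN from all vehicle libraries.

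Of 6 genes of ornithine, proline and urea cycle metabolism tested, 4 were lower and 1 was higher (median log2 fold change -0.60). On the route to proline, Oat, ornithine aminotransferase, fell (37.9 against 25.2 CPM, log2 fold change -0.59 ± 0.10), as did Aldh18a1, pyrroline-5-carboxylate synthase (35.7 against 19.2 CPM, -0.90 ± 0.14), and Pycr1, a pyrroline-5-carboxylate reductase (1.29 against 0.490 CPM, -1.41 ± 0.26). Gamt, of creatine synthesis, was higher (0.756 against 1.44 CPM, 0.95 ± 0.24).

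Around Acod1, changes were small. Of 9 genes of itaconate supply, export and breakdown tested, 2 were higher and 1 lower (median log2 fold change 0.05). The succinyl-CoA ligase subunits Sucla2 (15.7 against 21.4 CPM, log2 fold change 0.45 ± 0.09) and Suclg1 (5.26 against 6.96 CPM, 0.40 ± 0.12) were higher, while Suclg2 was lower (6.46 against 4.71 CPM, -0.46 ± 0.16).

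Of 11 known regulators of these genes, 9 were lower, 1 higher and 1, Irf1, not called (3226 against 3068 CPM, log2 fold change -0.07 ± 0.15). The falls with the smallest p were those of Ifngr1, a chain of the interferon-γ receptor (74.4 against 27.9 CPM, log2 fold change -1.42 ± 0.09), Hif1a (662 against 306 CPM, -1.11 ± 0.13), Cebpb (644 against 243 CPM, -1.40 ± 0.18) and Nfkb1 (959 against 557 CPM, -0.78 ± 0.12). The gene that rose was Irf8 (2057 against 3540 CPM, 0.78 ± 0.26). The list's median log2 fold change was -0.57.

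**Figure D2:**
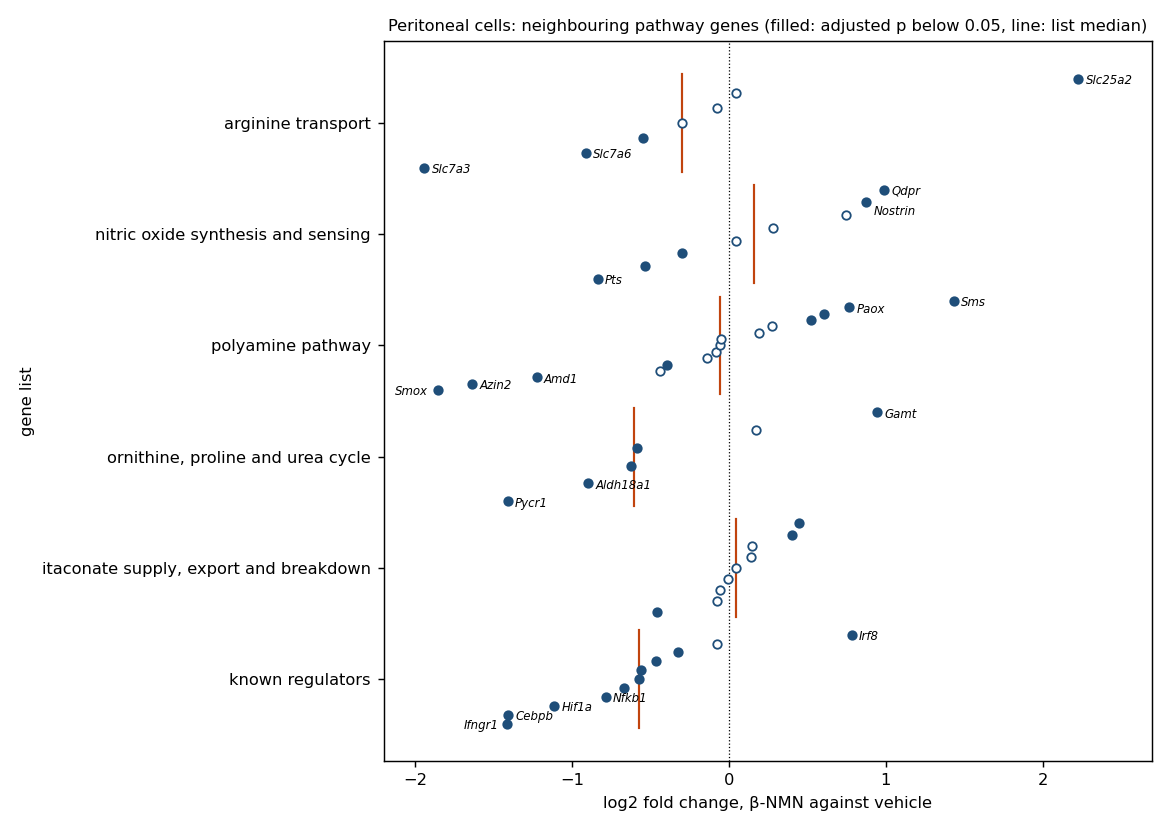
Log2 fold change (β-NMN against vehicle, horizontal axis) of each tested gene of 6 lists in peritoneal cells, 1 point per gene, 1 band per list. Filled points passed an adjusted p below 0.05 and the short vertical line is the list median. The regulators lie mostly on the lower side, with 9 lower and 1 higher call, whereas the polyamine genes fall on both sides, with 4 calls each.

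Markers of other cell types moved along with the peritoneal results. Of 7 neutrophil markers tested, 5 were lower and 1 higher, and they moved unevenly. S100a8 fell from 87.4 to 2.78 CPM (log2 fold change -5.00 ± 0.34), and S100a9, Cxcr2 and Ly6g, at 76.8, 4.41 and 1.05 CPM in vehicle cells, were at 2.02, 0.265 and 0.0406 CPM in β-NMN cells. Csf3r was lower by less (554 against 370 CPM, -0.58 ± 0.14), Retnlg, at 6.59 CPM in vehicle cells, was higher (1.38 ± 0.40), and Mmp8 was not called (9.91 against 10.8 CPM, 0.12 ± 0.29). The summed neutrophil level, 491 to 998 CPM in vehicle and 334 to 468 CPM in β-NMN libraries, consists mostly of Csf3r.

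Of 7 macrophage markers, 3 (Cd68, Lyz2, Mertk) were higher and none lower. The summed level of the 7 was 5620 to 8547 CPM in vehicle and 10570 to 12138 CPM in β-NMN libraries, and consists mostly of Lyz2. All 5 erythroid markers were higher, with a summed level of 2.91 to 38.8 CPM in vehicle and 52.5 to 133 CPM in β-NMN libraries, and a median log2 fold change of 2.58. Of 8 B and T cell markers, 6 were lower and none higher, with a median log2 fold change of -1.18 and summed levels that overlapped (34.2 to 164 against 22.5 to 85.2 CPM). The part of such differences in cell make-up in the falls of Nos2, Acod1 and the other genes was not tested.

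In the CLP heart, none of the 7 genes tested was called by edgeR, as was true of all 16245 genes (0% called), although 1837 of all genes and 1 of the 7 had an unadjusted p below 0.05. DESeq2 called 267 genes, among them Slc7a2. Treatment groups did not overlap for 3 of the 7, with β-NMN hearts lower for Slc7a2 and Odc1 and higher for Asl. Of all genes tested, 23.1% were so separated, 11.5% with β-NMN lower and 11.6% with β-NMN higher. The median log2 fold change was -0.54 over the 7 genes and -0.0058 over all genes. Without vehicle mouse 2, the middle value of the 7 was that of Nos3, at -0.08.

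Slc7a2 lay at 12.4, 28.4 and 6.37 CPM in vehicle hearts 1 to 3 and at 4.77, 5.10 and 3.40 CPM in β-NMN hearts 1 to 3. The β-NMN hearts were alike, and the vehicle hearts were spread. Between the groups the log2 fold change was -1.84 ± 0.52 with a 95% interval of -3.07 to -0.60 (unadjusted p = 0.01, adjusted p = 0.435 in edgeR, adjusted p = 0.0219 in DESeq2), and in edgeR it was -1.11 without vehicle mouse 2 (adjusted p = 0.293).

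Odc1 lay at 69.2, 119 and 66.5 CPM in vehicle hearts and at 60.9, 58.7 and 55.5 CPM in β-NMN hearts. Vehicle mouse 2 was far above all others. The log2 fold change was -0.54 ± 0.23 (edgeR adjusted p = 0.435), and -0.23 without that mouse (adjusted p = 0.451). Nos3 was likewise highest in vehicle heart 2, at 114 CPM against 32.6 to 39.7 CPM in the other 5 hearts, and its log2 fold change of -0.85 ± 0.45 was -0.08 without it. Much of both values thus rested on 1 heart.

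Asl lay at 8.11, 7.04 and 7.10 CPM in vehicle hearts and at 10.1, 8.22 and 8.39 CPM in β-NMN hearts, a narrow separation (log2 fold change 0.26 ± 0.15, edgeR adjusted p = 0.48, and 0.21 without vehicle mouse 2). For each of Slc7a2, Odc1 and Asl the exact permutation p was 0.1, the smallest that 3 against 3 allows and the value that groups without overlap always give.

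Acod1 was low and scattered in the heart. It lay at 0.937, 3.01 and 3.70 CPM in vehicle hearts and at 0.559, 0.111 and 1.47 CPM in β-NMN hearts. Vehicle hearts 2 and 3 were above all β-NMN hearts and vehicle heart 1 was not. For Acod1 the log2 fold change was -1.80 ± 0.87 (edgeR adjusted p = 0.447), with a 95% interval of -3.87 to 0.27 that holds both 0 and the value of the peritoneal cells. It was -1.64 without vehicle mouse 2 and -3.01 without β-NMN replicate 3.

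Nos2 was at 4.57 to 7.76 CPM in vehicle and 5.40 to 7.32 CPM in β-NMN hearts (log2 fold change 0.18 ± 0.26), and Ass1 at 3.14 to 5.68 and 2.79 to 4.80 CPM (-0.26 ± 0.32). Both overlapped between the groups, and with 1 heart left out in turn they lay at 0.05 (without vehicle replicate 3, and likewise without vehicle replicate 2) to 0.47 (without vehicle replicate 1) for Nos2 and at -0.53 (without β-NMN replicate 1) to -0.0031 (without vehicle replicate 2) for Ass1.

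Along with these values, the summed neutrophil markers were 21.3 to 36.4 CPM in vehicle and 14.0 to 15.6 CPM in β-NMN hearts (0 of 7 called), and the summed cardiomyocyte markers were lowest in vehicle heart 2 (33620 CPM, against 45833 to 52445 CPM in the others). Among these cardiomyocyte markers (0 of 6 called), Nppa, a natriuretic peptide, went against the other 5 and was at 1548 ± 2152 CPM in vehicle and 75.2 ± 30.1 CPM in β-NMN hearts (SD, n = 3, log2 fold change -4.36 ± 1.59, unadjusted p = 0.029, edgeR adjusted p = 0.435), with overlapping groups. Endothelial markers summed to 989 to 1161 CPM in vehicle, highest in heart 2, and to 944 to 1140 CPM in β-NMN hearts (0 of 7 called). Their part in the values of Slc7a2, Odc1, Nos3 and Acod1 was not tested. The gene with the smallest p in each pathway list was Slc7a7 for transport (13.1 against 4.94 CPM, log2 fold change -1.41 ± 0.56), Gch1 for nitric oxide (15.3 against 9.51 CPM, -0.68 ± 0.23), Atp13a2, a polyamine exporter of lysosomes (32.7 against 42.6 CPM, 0.38 ± 0.13), Aldh18a1 for proline (10.3 against 6.63 CPM, -0.63 ± 0.27), Clybl for itaconate breakdown (62.4 against 80.3 CPM, 0.36 ± 0.21) and Cebpb among regulators (96.9 against 70.6 CPM, -0.46 ± 0.12), none of them called (edgeR adjusted p = 0.435 to 0.472).

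**Figure D3:**
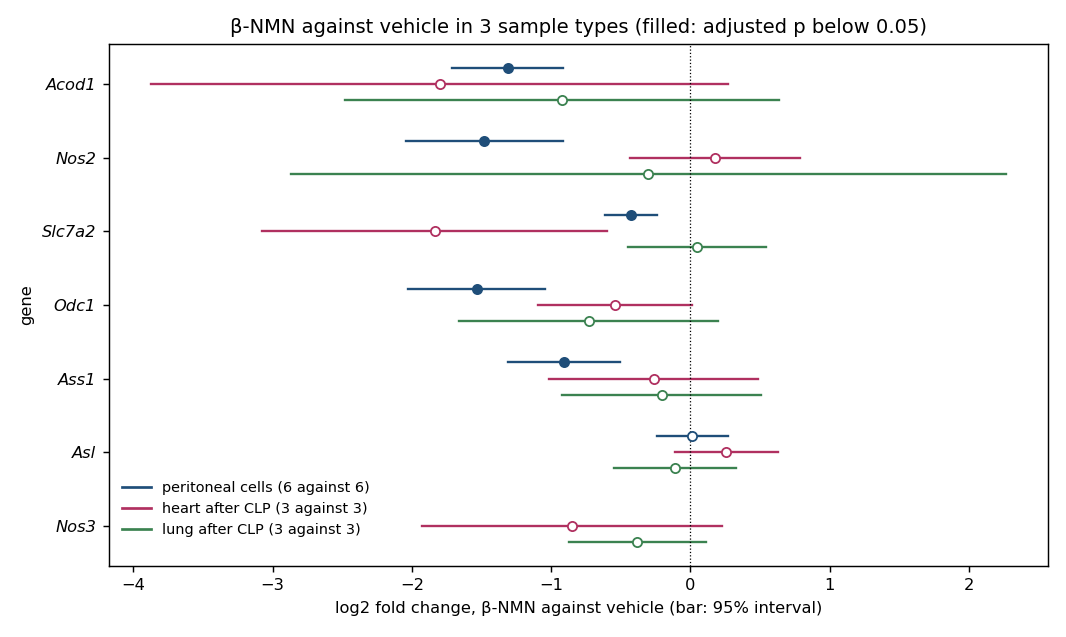
Log2 fold change (β-NMN against vehicle) of each gene in peritoneal cells, CLP heart and CLP lung, with its 95% interval. Filled points passed an adjusted p below 0.05. Filled points occur in peritoneal cells alone (5 genes), and the intervals in heart and lung are wide, reaching from -2.87 to 2.26 for Nos2 in lung. Nos3 in peritoneal cells was not tested.

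In the CLP lung, none of the 7 genes, and none of all 17008 genes tested, was called by edgeR (0% called), 0 of the 7 and 301 of all genes had an unadjusted p below 0.05, and DESeq2 called 7 genes, none of them among the 7. Odc1, Nos3 and Asl were lower in all 3 β-NMN lungs than in all 3 vehicle lungs, as were 3.75% of all genes tested, where 4.47% were higher in this way and 8.21% were separated in either direction. The median log2 fold change was -0.30 over the 7 genes and 0.00057 over all genes. Without vehicle mouse 2, the middle value of the 7 was that of Nos3, at -0.27.

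Odc1 lay at 95.2, 218 and 88.8 CPM in vehicle lungs 1 to 3 and at 87.0, 66.7 and 88.0 CPM in β-NMN lungs 1 to 3. Apart from vehicle lung 2, the groups nearly touched. The log2 fold change was -0.73 ± 0.39 (edgeR adjusted p = 0.969), and -0.19 without vehicle mouse 2. Odc1 was thus lower with no overlap in all 3 sample types, called in peritoneal cells, and of a size set by 1 mouse in both organs, whose samples come from the same 6 mice. The share of all genes lower with no overlap in all 3 sample types was not counted.

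Nos3, at 33.5, 41.5 and 33.2 CPM in vehicle lungs and 24.3, 29.0 and 29.5 CPM in β-NMN lungs, showed a small separation (log2 fold change -0.38 ± 0.21, edgeR adjusted p = 0.969) and was at -0.27 without vehicle mouse 2. Of its exonic length, 1040 bp (25.2%) are shared with Gm15587 and 294 bp with Atg9b, both on the opposite strand, and no source used here says whether reads were counted by strand. Asl lay at 38.0, 37.1 and 37.3 CPM in vehicle lungs and 36.8, 32.0 and 35.4 CPM in β-NMN lungs, a separation of under 1 CPM (log2 fold change -0.11 ± 0.18, edgeR adjusted p = 0.969, and -0.12 without vehicle mouse 2). The direction was the opposite of that in the heart.

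Nos2 and Acod1 were barely expressed in lung and overlapped between the groups. Nos2 lay at 3.20, 0 and 7.62 CPM in vehicle lungs and at 2.19, 3.02 and 3.78 CPM in β-NMN lungs. The 0 of vehicle lung 2 allows up to 0.432 CPM at its depth, still below every other lung. The log2 fold change was -0.30 ± 1.09, and it was -0.83 without vehicle replicate 2 and turned to 0.80 without vehicle replicate 3. Acod1 lay at 2.12, 2.60 and 6.63 CPM in vehicle lungs and at 0.914, 1.62 and 3.45 CPM in β-NMN lungs, with replicate 3 the highest of each group (log2 fold change -0.92 ± 0.66, edgeR adjusted p = 0.969). Its value rested on these libraries, at -0.20 when vehicle replicate 3 was left out, at -1.09 when vehicle replicate 2 was and at -1.57 when β-NMN replicate 3 was.

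Slc7a2 was even across lungs, at 40.3 to 56.0 CPM in vehicle and 48.3 to 51.4 CPM in β-NMN, and its log2 fold change was 0.05 ± 0.21 with a 95% interval of -0.45 to 0.54 (-0.06 without vehicle mouse 2). Ass1 lay at 12.7 to 23.7 and 14.9 to 19.4 CPM in vehicle and β-NMN lungs. The groups overlapped, with a log2 fold change of -0.21 ± 0.30 for Ass1, which was -0.44 without vehicle replicate 2 and -0.06 without vehicle replicate 3.

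In vehicle lung 2, the summed macrophage markers were at 1342 CPM, against 3982 to 5477 CPM in the other 5 lungs, and the summed erythroid markers at 11867 CPM, against 1999 to 4088 CPM. The summed endothelial markers were also highest there, at 5056 CPM against 2818 to 3745 CPM (0 of 7 called between the groups, 5 of them with a positive and 2 with a negative log2 fold change). Most of that sum was Cldn5, at 3499 CPM, so it does not show the endothelial markers as a set to be highest in this lung. The part of these macrophage, erythroid and endothelial markers in its Nos2, Odc1 and Nos3 levels was not tested. The genes with the smallest p per pathway list were Slc7a1 for transport (19.4 against 13.0 CPM, log2 fold change -0.57 ± 0.33), Gch1 for nitric oxide (32.3 against 21.6 CPM, -0.58 ± 0.23), Sms for polyamines (22.3 against 29.1 CPM, 0.38 ± 0.21), Otc for the urea cycle (0.200 against 0.673 CPM, 1.48 ± 0.69), Slc25a1 for itaconate supply (51.8 against 61.1 CPM, 0.24 ± 0.22) and Il4ra among regulators (276 against 178 CPM, -0.63 ± 0.26), none of them called (edgeR adjusted p = 0.969).

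**Figure D4:**
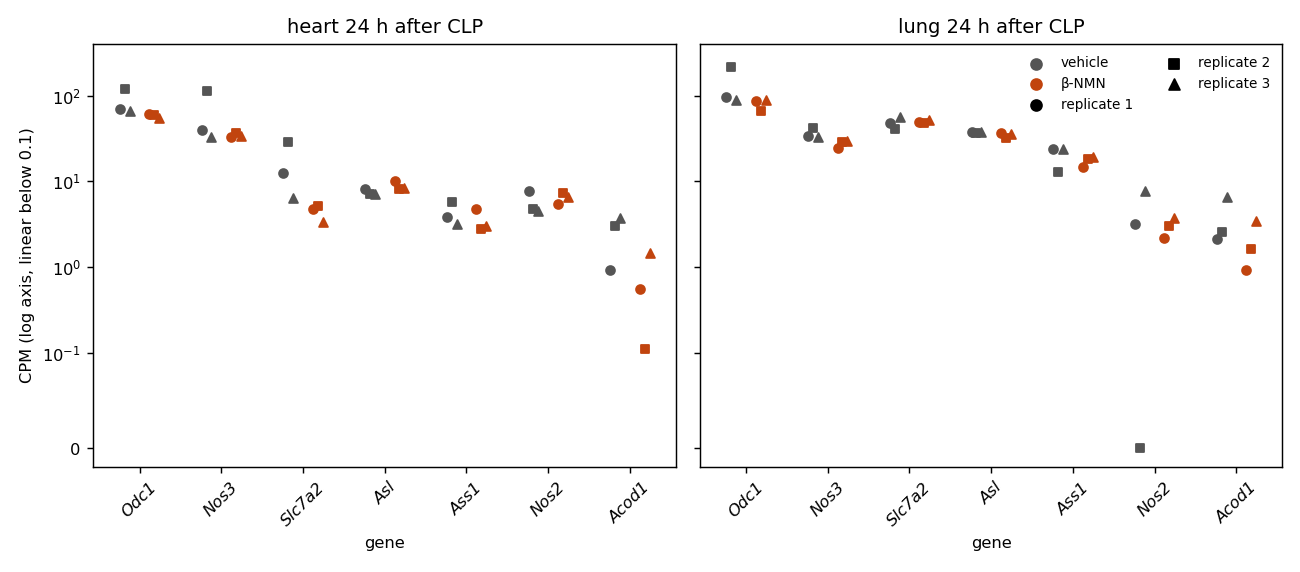
Level of the 7 genes in each heart and lung 24 h after CLP, in CPM on an axis that is logarithmic above 0.1 and linear below. Each point is 1 organ of 1 mouse, colours are treatments and shapes are replicate numbers (squares: replicate 2). The grey squares of vehicle mouse 2 are the highest points for Odc1 in both organs (119 and 218 CPM) and for Nos3 and Slc7a2 in heart, and the lowest for Nos2 in lung (0).

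Whether β-NMN acted differently in the organs was tested as an interaction over the 12 organ libraries, fitted without the mouse as a term although both organs come from the same 6 mice. None of the 7 genes and none of 18318 genes passed in edgeR (0% called), 1 of the 7 and 797 of all genes had an unadjusted p below 0.05, and DESeq2 called 7 genes, none of them among the 7. The exception was Slc7a2, whose log2 fold change was 1.88 ± 0.59 higher in lung than in heart (unadjusted p = 0.00828, edgeR adjusted p = 0.96), and 1.02 higher without vehicle mouse 2. With the mouse as a block, again 0 genes were called, the Slc7a2 difference was 1.66 (edgeR adjusted p = 0.957), and that of Nos2 turned from -0.52 to 0.11 (-0.91 without vehicle mouse 2 and without the block). For Asl, with its opposite separations, the difference was -0.36 ± 0.24 (edgeR adjusted p = 0.96), and -0.35 without vehicle mouse 2. The differences of Acod1 (0.90 ± 1.17), Nos3 (0.48 ± 0.52), Ass1 (0.05 ± 0.47) and Odc1 (-0.15 ± 0.45) were no larger than their standard errors (edgeR adjusted p = 0.96 to 1.00), and without vehicle mouse 2 they were 0.51, -0.21, -0.45 and 0.0076.

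Between the organs themselves, paired by mouse, 5 of the 7 genes differed, against 63.1% of all 19279 genes tested (34.4% higher and 28.8% lower in lung). CPM values in this comparison were scaled over all 12 organ libraries. Slc7a2 (12.8 ± 11.9 CPM in heart against 38.6 ± 5.58 CPM in lung, SD, n = 6, log2 fold change 2.04 ± 0.45) was higher in lung in 5 of 6 mice, and Ass1 (4.92 ± 1.41 against 14.9 ± 4.12 CPM, 1.60 ± 0.29) and Asl (10.4 ± 1.43 against 28.4 ± 2.08 CPM, 1.46 ± 0.14) in 6 of 6. Nos3 was lower in lung in all 6 mice (61.0 ± 39.9 against 24.9 ± 3.86 CPM, log2 fold change -1.13 ± 0.21), and Nos2 in 5 of 6 (7.74 ± 1.81 against 2.66 ± 2.03 CPM, -1.86 ± 0.58, edgeR adjusted p = 0.021).

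Without vehicle mouse 2 the log2 fold changes were 2.34 for Slc7a2, 1.75 for Ass1, 1.33 for Asl, -1.01 for Nos3 and -1.55 for Nos2, and all 5 were still called. The Nos2 call was lost without vehicle mouse 1, β-NMN mouse 1 or β-NMN mouse 2 (edgeR adjusted p = 0.0585, 0.0607 and 0.0615). Acod1 (log2 fold change 0.48 ± 0.46) and Odc1 (-0.18 ± 0.12) were not called, although without vehicle mouse 2 Odc1 was (-0.32, adjusted p = 0.0139), whereas Acod1 was not (0.63, adjusted p = 0.126).

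Per kb of exon, Odc1 led in both organs and both groups, and Acod1 and Nos2, the top genes of the stimulated peritoneal cells, had the lowest means in lung and in vehicle hearts. In β-NMN hearts Acod1 was again lowest, but Nos2 was level with Ass1 (ratio of means 1.00, overlapping ranges) and 3.02 times above Slc7a2, with no overlap. In vehicle lungs Odc1 was at 39.3 ± 21.3 CPM per kb (SD, n = 3), Nos3 at 8.72 ± 1.14, Ass1 at 8.30 ± 2.62, Asl at 7.76 ± 0.098, Slc7a2 at 5.26 ± 0.862, Acod1 at 1.44 ± 0.943 and Nos2 at 0.818 ± 0.867. The range of Ass1 overlapped those of Nos3 and Asl, which did not overlap each other, and the ranges of the last pair overlapped. In vehicle hearts Odc1 was at 24.9 ± 8.68 and Nos3 at 15.0 ± 10.8 CPM per kb, with overlapping ranges. Both lay above Ass1 (1.75 ± 0.544), from which all neighbours down to Acod1 (0.971 ± 0.548) overlapped.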

How the data were processed

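Per the labels, poly(A) RNA was sequenced on a NovaSeq, aligned to mm10 with STAR (2.7.3a) and counted with featureCounts (2.0.0), as named in the submitters' processing notes. No source used here names the annotation or the strand setting. The deposited tables hold raw counts per gene, made by the authors, with 1 column per sample. The sample descriptions of the heart and lung libraries name thioglycollate, whereas their titles and tissue fields name CLP, which was followed. A pair of β-NMN hearts carry the same replicate number, and 1 of them was numbered 2 from the mouse code it shares with a lung.

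Counts were tested with edgeR (4.0.16, R 4.3.3): genes kept by filterByExpr, TMM scaling, quasi-likelihood F-test, Benjamini-Hochberg adjustment over all genes tested, called below 0.05. Each tissue was fitted alone. Heart against lung was fitted with the mouse as a block, and the difference of the β-NMN effect as an interaction. SE is that of the log2 fold change and intervals are 95%. CPM are on TMM-scaled library sizes, and the exact permutation tests used log2 CPM with a prior count of 2. A count of 0 allows up to 3 counts. Scripts were tested on simulated data. The alternatives were DESeq2 (1.42.0) and its size factors, no filter, the newer quasi-likelihood fit, limma-voom (limma 3.58.1), a replicate block, both organs in 1 fit, leaving out each library, and, added after seeing the data, peritoneal libraries split by total counts. Gene positions are RefSeq's on GRCm38.p6, and exonic lengths and overlaps are from GENCODE M21, whose starts can differ. Motifs were searched in the 250 bases before each RefSeq start.

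The genes and lists were chosen with earlier results of these data known. A few genes are not reported here and were left out of the lists, counts and medians after their values were known. All 7 genes are reported in every comparison. From each pathway list, counts are given with up to 4 called genes of smallest p, or the 1 gene of smallest p where none was called, and for Nos2 and Acod1 the 3 genes of highest r. Gch1, Slc7a1, Irf1, Irf8 and the marker genes were named after their values were seen. Mice were separate in each group, and depth limits the low genes most, in particular in the lung library of 8915366 counts. Replicates of a group differed by more than sampling noise, so none was merged.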

Additional observations from a re-analysis of the deposited data

Results flagged for a closer look

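In the peritoneal β-NMN group, replicate 6 stood far from the other 5 libraries for Acod1. Its level was the highest of the group, at 11.77 on the log2 CPM scale. The gap to the nearest library was 0.768 of the group's range, and chance alone flags about 1 in 20 groups, of which 16 were examined. Without this library, the log2 fold change of Acod1 was -1.49 (edgeR adjusted p = 1.34e-06).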

How the results depend on the processing

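In peritoneal cells, 5 genes of the 7 were called under every alternative except the deeper libraries alone, where 4 were. Genes called over the whole table numbered 7733, and 4244 in the shallower libraries alone. In heart, genes called were 0, but 3 with no filter, 267 by DESeq2 (1 of them among the 7), 3 by limma-voom, and 0 to 5 with 1 heart left out (5 without vehicle replicate 2). In lung they were 0, but 7 by DESeq2 and 7 by limma-voom, and for the interaction 0, but 2 with no filter and 7 by DESeq2. Log2 fold changes near 0 changed sign: Asl in peritoneal cells in the shallower libraries (-0.0997) and over left-out libraries (-0.0498 to 0.13), Nos2 in heart (-0.0343) by limma-voom, and, with 1 lung left out, Nos2 (-0.83 to 0.80) and Slc7a2 (-0.0643 to 0.19). For the interaction, Ass1 changed sign with DESeq2 size factors (-0.0316) and DESeq2 (-0.0248), Nos2 with the mouse as a block (0.11), and with 1 mouse left out Nos2 (-0.93 to 0.67), Nos3 (-0.21 to 0.77), Ass1 (-0.45 to 0.44) and Odc1 (-0.27 to 0.0076). In heart against lung, 4 to 6 of the 7 genes were called with 1 mouse left out and 5 without the mouse block. The cause of these shifts was not tested.

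Replicate numbers paired no samples in the treatment comparisons. Deviations of same-numbered libraries correlated at -0.19 to 0.09 in peritoneal cells, 0.06 to 0.13 in heart and -0.58 to 0.36 in lung, although every heart correlated best with its own number. With the replicate block, 7133 genes and the same number of the 7, 5, were called in peritoneal cells, 0 in heart and 0 in lung, where Nos2 changed sign (0.41).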
